A study of Homo sapiens with 16 samples.

Results

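The lung cell line H1299 was compared with the lung cell line HBE by sequencing of polyadenylated RNA, over 12 of the 16 libraries of the series. The members were chosen by their labels: all 6 H1299 and all 6 HBE libraries of mRNA, cytosol RNA and nuclear RNA. H1299 is a non-small cell lung carcinoma line that was established from a lymph node metastasis. HBE is labelled, like H1299, as a lung epithelial cell line. Each line was sequenced in 2 states of FLII, a gelsolin-related protein that acts on actin filaments. The H1299 cells carried a Flag-tagged FLII expression plasmid or the empty plasmid, both delivered with a lipid reagent. The HBE cells carried a stable knockdown of FLII by a short hairpin RNA delivered with lentivirus, or the control that the labels name NC. All cells were at passage 15 to 18 and were grown in the same serum-containing medium. Each combination of line, RNA and FLII state is 1 library. The lines thus differ in the mode of vector delivery as well as in identity, which cannot be told apart here, and each is a single cultured line.

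Epithelial cells are joined by E-cadherin junctions, tight junctions and desmosomes, and their cytoskeleton is built on keratins. Basal cells of the airway, which renew the other cells of its lining, carry KRT5, KRT14 and KRT17 under the control of p63. In an epithelial-mesenchymal transition, repressors of the ZEB, SNAI and TWIST families bind E-boxes in the promoters of epithelial genes, E-cadherin is lost, and vimentin replaces keratin filaments. The microRNA miR-205, made from the transcript MIR205HG in basal epithelia, is known to restrain ZEB1 and ZEB2.

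The promoters of 3 genes that were far lower in H1299 are shown with these E-boxes, since the repressors described further on bind such sites. They were picked among promoters that hold a match. Each runs 250 bases before to 50 bases after the annotated start, 5′ to 3′ on the gene's strand, from RefSeq on build GRCh38.p14. Capitals mark CAGGTG and its reverse complement CACCTG, so both strands were searched. The CLDN7 window lies at chr17:7262429-7262728 on the minus strand and holds 5 matches. It was chosen from the 2 listed for this gene because the other held no more matches. The DSP window lies at chr6:7541421-7541720 on the plus strand and holds 2. The KRT5 window lies at chr12:52520345-52520644 on the minus strand and holds 1.
CLDN7: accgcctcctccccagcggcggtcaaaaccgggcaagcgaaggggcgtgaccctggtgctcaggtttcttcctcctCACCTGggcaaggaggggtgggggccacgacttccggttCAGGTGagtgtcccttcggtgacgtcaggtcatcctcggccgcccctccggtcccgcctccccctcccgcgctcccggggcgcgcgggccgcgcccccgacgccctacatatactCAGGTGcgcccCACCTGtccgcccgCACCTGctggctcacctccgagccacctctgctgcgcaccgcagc
DSP: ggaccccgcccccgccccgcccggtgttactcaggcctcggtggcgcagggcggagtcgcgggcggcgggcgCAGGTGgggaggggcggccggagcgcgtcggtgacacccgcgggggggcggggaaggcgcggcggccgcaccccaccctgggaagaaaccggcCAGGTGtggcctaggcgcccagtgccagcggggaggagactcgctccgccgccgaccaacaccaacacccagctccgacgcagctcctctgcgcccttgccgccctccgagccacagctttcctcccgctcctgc
KRT5: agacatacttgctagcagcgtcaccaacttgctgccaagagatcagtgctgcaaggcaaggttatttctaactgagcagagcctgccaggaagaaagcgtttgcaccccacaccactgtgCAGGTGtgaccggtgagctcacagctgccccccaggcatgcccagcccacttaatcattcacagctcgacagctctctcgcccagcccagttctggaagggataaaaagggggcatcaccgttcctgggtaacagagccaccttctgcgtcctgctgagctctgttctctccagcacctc
The mature miR-205-5p (chr1:209432166-209432187, plus strand, GRCh38.p14) is printed with its seed, bases 2 to 8, in capitals.
hsa-miR-205-5p: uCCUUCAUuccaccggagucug
Of all 35116 promoters in the table, 20.6% held CAGGTG or CACCTG. Of the 28 epithelial junction genes listed for this comparison 12 were in the table, and 9 of their 19 promoters (47.4%) held it. The share was 5 of 14 (35.7%) for desmosome genes, 2 of 5 (40%) for basal and stratified keratins and 8 of 35 (22.9%) for epithelial transcription factors. The wider E-box CANNTG, which includes both, was in 68.7% of all promoters and in 68.4% of those of the junction genes. Promoters of the same gene were counted separately, and the junction list also holds genes that were not lower in H1299. A match is a description of the letters only, and binding was not measured.

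The 12 libraries held 5914489 to 9259569 reads assigned to genes. Levels are given as CPM, read counts relative to the size of the library, after TMM scaling, which sets libraries to a common level for most genes. Of 23709 genes, 11648 had a mean of at least 5 CPM in either line and were tested. The log2 fold is always H1299 over HBE, with the RNA fraction as a block, and a gene was called at an edgeR adjusted p under 0.05 with an absolute log2 fold of at least 1. Libraries of the same line and fraction that differed only in FLII state had Spearman correlations across genes of 0.977 to 0.995. Those of different lines and the same fraction reached 0.643 to 0.732. Nothing in the labels says that libraries came from separate cultures, so p-values measure the spread between these libraries only. FLII itself was at 1969, 1146 and 959 CPM in the H1299 mRNA, cytosol and nuclear libraries with the FLII plasmid, against 428, 343 and 263 CPM with the empty plasmid. In HBE the hairpin libraries had 46.9, 57.6 and 50.6 CPM, against 280.0, 429 and 399 CPM in the NC libraries. With the control libraries alone the FLII log2 fold between lines was -0.11 (edgeR adjusted p = 0.777). A pair of libraries stood apart within their line for the genes given next, and others did for genes listed further on. The H1299 cytosol library with the FLII plasmid held 139.8 CPM summed over 7 basal epithelial markers, against 12.5 to 24.95 CPM in the other 5 H1299 libraries and 3912 to 11900 CPM in HBE. The HBE NC mRNA library had 484 CPM of the hypoxia gene CA9, against 22.5 to 122 CPM in the other 5 HBE libraries. The 4 libraries of ribosome-bound RNA were left out of every comparison, by the rule that chose the members, and their lineage markers went against some of their labels. KRT17 was at 3997 CPM in the library labelled H1299 RNC with FLII and at 1.80 CPM in the library labelled HBE RNC with the hairpin, on total counts.

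H1299 and HBE differed in 40.6% of the genes tested. There were 2113 genes higher in H1299 (18.1% of 11648) and 2618 lower (22.5%). A fold of log2 3 or more was reached by 603 genes (5.18%) upward and 811 (6.96%) downward. In 1465 genes (12.6%) every H1299 library was above every HBE library, and in 1827 (15.7%) every HBE library was above every H1299 library. Most genes named from the lists were picked for large folds or after their values were seen. A lack of overlap between the lines in them follows largely from that choice. Scaling by total counts moved the median log2 fold of all genes from -0.07 to 0.24 and gave 2949 genes higher and 1999 lower. The share of higher calls among all calls was then 59.6%, against 44.7% with TMM, so small folds depend on the scaling. Of the genes tested, 1300 passed the filter on low values through H1299 alone and 1209 through HBE alone. A list member that passed through 1 line alone had, by the filter, the higher mean in that line, though it need not be called. The counts of list members that follow are thus descriptions. They are to be read beside 18.1% higher and 22.5% lower over all genes tested, and each list is given with the number listed, tested and passing through 1 line alone. Of the genes called, 4661 had the same sign in all 3 fractions and 70 did not.

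The genes with the widest gap between the lines, from the highest library of 1 line to the lowest of the other, were of unlike kinds. They were picked for this gap, so their separation and p-values are descriptions. Where 3 levels are given for a line, they are the lowest, median and highest of its 6 libraries. MAGEA4, a cancer-testis antigen normally limited to germ cells, had 507, 588 and 796 CPM in H1299, against 0.104, 0.739 and 1.33 CPM in HBE (log2 fold 9.83 ± 0.24 SE, edgeR adjusted p = 1.23e-12). G0S2, an inhibitor of triglyceride breakdown, had 434, 504 and 613 CPM in H1299, against 0.126, 0.518 and 1.22 CPM in HBE (log2 fold 9.94, edgeR adjusted p = 1.23e-12). FLNC, the muscle form of filamin, had 263, 539 and 917 CPM in H1299, against 0.504, 0.632 and 1.13 CPM in HBE (log2 fold 9.63, edgeR adjusted p = 1.23e-12). All 3 were near 0 in HBE and above 260 CPM in every H1299 library. The rest of the top 10 upward were VIM, PRAME and GAGE8, the RNA-binding protein IGF2BP1, the homeobox gene RHOXF2, the elongation factor EEF1A2 and FAM101A. Downward, INPP5D, the phosphatase SHIP1 best known from blood cells, had 0, 0.111 and 0.347 CPM in H1299, against 78.3, 130.1 and 156 CPM in HBE (log2 fold -9.74 ± 0.27 SE, edgeR adjusted p = 1.71e-12). UNC13D, a priming factor for granule release, had 0.568, 1.46 and 2.21 CPM in H1299, against 172, 187 and 394 CPM in HBE (log2 fold -7.34, edgeR adjusted p = 1.23e-12). Both were near 0 in H1299. SIK1, a salt-inducible kinase, had 0.284, 1.32 and 8.82 CPM in H1299, against 517, 589 and 1427 CPM in HBE (log2 fold -8.40, edgeR adjusted p = 4.83e-09). By this choice, the lowest HBE library of each of these 3 genes lay far above the highest H1299 library. Other genes of the 10 widest downward gaps were IRX2, ELF3, C6orf132, the calcium channel TRPV4, the steroid reductase AKR1C2 and the myosin MYO1D. Without the H1299 FLII cytosol library, the log2 fold of SIK1 was -9.28.

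Of the lineage markers, VIM, KRT5, KRT17 and CDH1 separated the lines fully, while KRT8 and KRT18 overlapped between them. Vimentin (VIM), the intermediate filament of mesenchymal cells, had 1782, 2785 and 4325 CPM in H1299, against 1.51, 3.59 and 10.0 CPM in HBE (log2 fold 9.55 ± 0.44 SE, edgeR adjusted p = 1.30e-10). The basal keratin KRT5 had 0.953, 1.17 and 29.1 CPM in H1299, against 534, 1509.7 and 1659.7 CPM in HBE (log2 fold -8.17 ± 0.71 SE, edgeR adjusted p = 1.09e-07). KRT17, a keratin of basal and stressed epithelia, had 2.70, 5.18 and 89.8 CPM in H1299, against 2829, 5434 and 10154 CPM in HBE (log2 fold -8.69 ± 0.72 SE, edgeR adjusted p = 6.13e-08). The highest H1299 value of both keratins, 29.1 and 89.8 CPM, was in the cytosol library with the FLII plasmid. Without it the KRT5 log2 fold was -9.49 (edgeR adjusted p = 1.69e-10). E-cadherin (CDH1) had 0, 0.680 and 1.80 CPM in H1299, against 4.26, 96.6 and 205 CPM in HBE (log2 fold -7.04 ± 0.60 SE, edgeR adjusted p = 8.60e-08). Its HBE level depended on the RNA: 179 and 205 CPM in mRNA and 108 and 85.0 CPM in nuclear RNA, but 5.12 and 4.26 CPM in cytosol RNA. Both lines are labelled as epithelial lung cells, and the simple keratins KRT8 and KRT18 were above 380 CPM in every library of both. KRT18 had 551, 1122 and 1791 CPM in H1299, against 626, 1826 and 2797 CPM in HBE, with overlapping groups, and was not called (log2 fold -0.53, edgeR adjusted p = 0.00155). Its partner KRT8 had 386, 462 and 1044 CPM in H1299, against 943, 2195 and 2571 CPM in HBE and was lower in H1299 (log2 fold -1.69, edgeR adjusted p = 1.27e-07). The log2 folds of KRT17 and CDH1 were -9.63 and -7.68, in this order, without the H1299 FLII cytosol library.

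**Figure D1:**
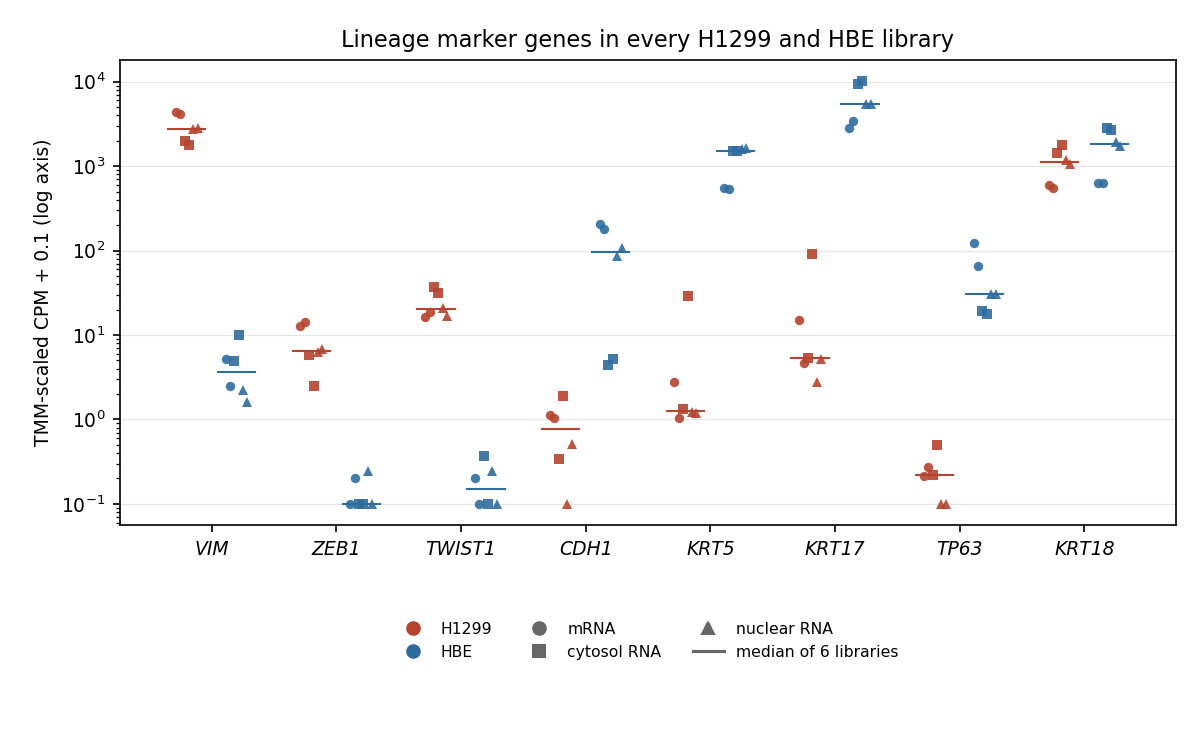
TMM-scaled CPM plus 0.1 on a log axis for 8 genes, H1299 (red) left of HBE (blue), with 1 point per library, the marker giving the RNA fraction and the bar the median of 6 libraries. VIM, ZEB1 and TWIST1 are higher in all 6 H1299 libraries than in any HBE library. CDH1, KRT5, KRT17 and TP63 are the reverse, and KRT18 overlaps.

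Most genes of epithelial adhesion were lower in H1299. Of 28 epithelial junction genes (28 listed, 1 passing through H1299 alone and 15 through HBE alone), 22 were lower, 2 higher and 4 not called. Their median log2 fold was -5.70, against -0.07 over all genes tested. CLDN7, a claudin of tight junctions, had 0.346, 0.779 and 11.6 CPM in H1299, against 262, 475 and 826 CPM in HBE (log2 fold -8.02 ± 0.63 SE, edgeR adjusted p = 3.28e-08). RAB25, a GTPase that recycles membrane proteins in polarised cells, had 0, 0.189 and 2.61 CPM in H1299, against 55.5, 96.5 and 283 CPM in HBE (log2 fold -8.24, edgeR adjusted p = 5.06e-11). EPCAM, the epithelial cell adhesion molecule, had 0.242, 0.914 and 2.41 CPM in H1299, against 23.7, 156 and 186 CPM in HBE (log2 fold -6.89, edgeR adjusted p = 3.16e-09). The protease matriptase (ST14) was lower by a log2 fold of -8.24. All 4 were below 20 CPM in every H1299 library, and the H1299 cytosol library with the FLII plasmid was the highest of its line for each of them. The 2 junction genes higher in H1299 were the tight junction proteins claudin-3 (CLDN3, log2 fold 1.46) and occludin (OCLN, 1.12), both at low levels, up to 8.42 and 30.2 CPM. TJP1, the scaffold ZO-1, had 17.0, 37.2 and 101 CPM in H1299, against 5.86, 31.4 and 80.5 CPM in HBE and was not called (log2 fold 0.64, edgeR adjusted p = 0.00534). Leaving out the H1299 FLII cytosol library gave log2 folds of -9.33, -9.26, -7.49 and -9.12 for CLDN7, RAB25, EPCAM and ST14, in this order.

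Desmosomes anchor keratin filaments at the membrane, and 10 of 12 of their genes tested (16 listed, 0 passing through H1299 alone and 3 through HBE alone) were lower in H1299 and none higher, with a median of -2.14. Plakoglobin (JUP), shared by desmosomes and adherens junctions, had 6.37, 13.1 and 22.1 CPM in H1299, against 667, 774 and 1123 CPM in HBE (log2 fold -6.03 ± 0.19 SE, edgeR adjusted p = 3.98e-12). Desmoplakin (DSP), which ties the desmosome to keratin, had 1.82, 6.82 and 10.5 CPM in H1299, against 28.1, 303 and 869 CPM in HBE (log2 fold -5.15, edgeR adjusted p = 4.79e-07). The cross-linker envoplakin (EVPL) had 0, 0.531 and 2.01 CPM in H1299, against 42.2, 111 and 158 CPM in HBE (log2 fold -7.28, edgeR adjusted p = 5.69e-10). None of these groups overlapped, in genes picked for their large folds. Of 8 basal and stratified keratins tested (15 listed, 0 passing through H1299 alone and 4 through HBE alone), 7 were lower, among them KRT14 at 0 to 2.41 CPM in H1299 and 10.3 to 129 CPM in HBE. Of 7 simple and hair keratins tested (9 listed, 0 passing through H1299 alone and 2 through HBE alone), 6 were lower. The simple keratin KRT19 had 0.542, 1.20 and 11.6 CPM in H1299, against 229, 639 and 828 CPM in HBE (log2 fold -7.90, edgeR adjusted p = 4.16e-09). The hair keratin KRT81 had 3.69, 6.50 and 96.4 CPM in H1299, against 1904, 5464 and 13091 CPM in HBE (log2 fold -8.66, edgeR adjusted p = 2.20e-08), and KRT86 a log2 fold of -8.74. KRT81 and KRT86, and KRT6A and its close copies, are so alike that reads may have been split among them. Log2 folds without the H1299 FLII cytosol library were -7.88, -8.82, -9.48 and -10.08 for EVPL, KRT19, KRT81 and KRT86, in this order.

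HBE also held some transcripts of squamous and of mucosal epithelium that were nearly missing from H1299. Of 16 squamous differentiation genes tested (35 listed, 1 passing through H1299 alone and 12 through HBE alone), 15 were lower and 1 higher, and the other members were too low in both lines to be tested. S100A9, a subunit of calprotectin, had 0, 0.251 and 1.80 CPM in H1299, against 32.9, 174 and 209 CPM in HBE (log2 fold -8.63 ± 0.54 SE, edgeR adjusted p = 2.75e-09). LY6D, a surface protein of keratinocytes, had 0.121, 0.222 and 3.81 CPM in H1299, against 116, 242 and 384 CPM in HBE (log2 fold -8.57, edgeR adjusted p = 2.68e-10). SFN, the cell cycle protein 14-3-3 sigma, had 0.693, 1.87 and 15.8 CPM in H1299, against 259, 747 and 1543 CPM in HBE (log2 fold -8.06, edgeR adjusted p = 1.85e-10). None of the 3, picked for their large folds, overlapped between the lines. SERPINB5, the serpin maspin, had 3 reads in all H1299 libraries together (summed ratio 0.00140, 95% counting interval 2.89e-04 to 0.00411, H1299 over HBE). The kallikrein KLK6 had no read in H1299 and was at least 97.2-fold higher in HBE, against a floor of 3 reads over the 6 libraries. CNFN, a cornified envelope protein, was the 1 higher gene (log2 fold 1.62). Without the H1299 FLII cytosol library, the log2 folds of S100A9, LY6D and SFN were -9.43, -9.75 and -8.75, in this order.

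The 10 airway secretory and mucosal genes tested (28 listed, 0 passing through H1299 alone and 9 through HBE alone) were called lower in H1299, and the other members found in the files were too low in both lines to be tested. SLPI, a protease inhibitor of airway fluid, had 0.116, 0.257 and 4.61 CPM in H1299, against 42.4, 267 and 329 CPM in HBE (log2 fold -8.03, edgeR adjusted p = 2.32e-09). LCN2, an iron-sequestering defence protein, had 0, 0.128 and 1.20 CPM in H1299, against 21.9, 67.3 and 103 CPM in HBE (log2 fold -8.04, edgeR adjusted p = 2.48e-10). The membrane mucin MUC4 had 0, 0.130 and 1.04 CPM in H1299, against 6.92, 37.3 and 195 CPM in HBE (log2 fold -7.96, edgeR adjusted p = 1.49e-09). The highest library had 0.260 CPM in H1299 and 0.937 CPM in HBE for the club cell gene SCGB1A1. For NKX2-1, the regulator of lung identity, it was 0.809 and 0.416 CPM, and for FOXJ1, the regulator of cilia, 0.606 and 5.98 CPM. No ciliated gene passed the filter on low values. Markers of other cell types were summed by library. Immune markers summed to 93.7 to 212 CPM in H1299 and 50.7 to 143 CPM in HBE, led by CD68, and 5 of the 12 markers were at 0 in every H1299 library and 3 in every HBE library, while the pan-leukocyte gene PTPRC did not pass 0.173 CPM in H1299 or 0.126 CPM in HBE. The 10 endothelial markers summed to 3.38 to 10.1 CPM in H1299 and 14.4 to 69.9 CPM in HBE, where CDH5 led. The 10 fibroblast markers summed to 3.70 to 8.54 CPM in H1299 and 23.7 to 96.9 CPM in HBE, where COL1A1 led. Their part in the line differences was not tested. MUC4 had a log2 fold of -7.27 without the H1299 FLII mRNA library. Leaving out the H1299 FLII cytosol library gave log2 folds of -9.44 and -9.07 for SLPI and LCN2, in this order.

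Mesenchymal genes were divided between the lines. Of 17 tested (26 listed, 3 passing through H1299 alone and 2 through HBE alone), 7 were higher and 6 lower in H1299, with a median log2 fold of 0.38. The tropomyosin TPM2 had 332, 675 and 901 CPM in H1299, against 6.92, 8.31 and 14.5 CPM in HBE (log2 fold 5.93 ± 0.31 SE, edgeR adjusted p = 4.81e-10). CTGF, a matrix-associated growth regulator, had 13.4, 69.0 and 139 CPM in H1299, against 1.60, 3.07 and 9.90 CPM in HBE (log2 fold 4.00, edgeR adjusted p = 7.65e-10). Both were picked for their large folds and were higher in every H1299 library. The matrix glycoprotein tenascin C (TNC) had 0.121, 1.59 and 2.71 CPM in H1299, against 1.33, 61.0 and 84.4 CPM in HBE (log2 fold -5.03, edgeR adjusted p = 4.21e-09). FAP, the fibroblast activation protease, had 2 reads in H1299 (summed ratio 0.00297, 95% counting interval 3.59e-04 to 0.0108, H1299 over HBE). Fibronectin (FN1) had 1.45, 25.8 and 35.0 CPM in H1299, against 2.20, 29.6 and 630.0 CPM in HBE and was called lower (log2 fold -1.79, edgeR adjusted p = 0.032), but its HBE maximum was the hairpin mRNA library. Without that library its log2 fold was -0.32 (edgeR adjusted p = 0.334). Without the H1299 vector mRNA, H1299 FLII mRNA or HBE hairpin nuclear library FN1 also missed the threshold, with adjusted p-values of 0.11, 0.107 and 0.0672. N-cadherin (CDH2) had 5.41, 29.3 and 32.1 CPM in H1299, against 1.60, 10.4 and 31.9 CPM in HBE and was not called (log2 fold 0.89, edgeR adjusted p = 0.0168).

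Of 8 transcription factors of the epithelial-mesenchymal transition tested (10 listed, 5 passing through H1299 alone and 2 through HBE alone), 5 were higher in H1299 and 3 lower. For genes with 1 to 3 reads in a line, the ratio of summed CPM, H1299 over HBE, is given with a 95% interval that covers counting error only. ZEB1, a repressor of E-cadherin, had 2.41, 6.44 and 14.2 CPM in H1299, against 0, 0 and 0.144 CPM in HBE (summed ratio 187, 95% counting interval 51.5 to 1549.9). TWIST1, which works in the same program, had 16.2, 19.9 and 36.9 CPM in H1299, against 0, 0.0515 and 0.266 CPM in HBE (summed ratio 319, 95% counting interval 109 to 1549.9). ZEB2 had 3.41, 6.36 and 21.1 CPM in H1299, against 0, 0.135 and 0.798 CPM in HBE (log2 fold 5.73 ± 0.53 SE, edgeR adjusted p = 1.81e-07). The homeobox factor PRRX1 had 3.27, 5.48 and 8.05 CPM in H1299, against 0, 0 and 0.244 CPM in HBE (summed ratio 242, 95% counting interval 43.2 to 9609.6). All 6 H1299 libraries exceeded all 6 HBE libraries for these 4 genes, which were picked for their large folds. In the other direction, SNAI2, which basal epithelial cells also use, had 0, 0.221 and 0.578 CPM in H1299, against 4.88, 6.40 and 8.43 CPM in HBE (log2 fold -4.53, edgeR adjusted p = 5.31e-09). SNAI3 and TWIST2 were lower by log2 folds of -3.17 and -1.15. MIR205HG, the host transcript of miR-205 and chosen after its values were seen, had 0, 0.101 and 1.20 CPM in H1299, against 68.3, 131 and 190.2 CPM in HBE (log2 fold -9.08, edgeR adjusted p = 1.18e-11). The mature miR-205 was not measured. For MIR205HG the log2 fold was -10.02 without the H1299 FLII cytosol library. Without the HBE NC cytosol library, the log2 fold of ZEB2 was 6.41.

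Factors that maintain epithelial identity were lower in H1299 in 18 of 22 cases tested (35 listed, 1 passing through H1299 alone and 14 through HBE alone) and higher in 2. TP63, the master factor of basal cells, had 0, 0.118 and 0.401 CPM in H1299, against 17.6, 30.6 and 122 CPM in HBE (log2 fold -8.52 ± 0.39 SE, edgeR adjusted p = 9.59e-11). TFAP2C, an AP-2 factor, had 0, 0.116 and 0.401 CPM in H1299, against 36.6, 46.6 and 75.4 CPM in HBE (log2 fold -8.59, edgeR adjusted p = 2.42e-11). GRHL2, which activates E-cadherin and claudin genes, had 0.121, 0.158 and 0.602 CPM in H1299, against 22.4, 46.8 and 63.2 CPM in HBE (log2 fold -7.42, edgeR adjusted p = 9.88e-12). Every HBE library was above every H1299 library for the 3 genes, which were picked for large folds or after their values were seen. EHF, an ETS factor of epithelia, had 3 reads in H1299 (summed ratio 0.00108, 95% counting interval 2.22e-04 to 0.00316), and OVOL2, a repressor of ZEB1, had 1 (summed ratio 0.00156, 95% counting interval 3.94e-05 to 0.00871). The 2 factors higher in H1299 were KLF4 (8.82, 12.5 and 29.5 CPM in H1299, against 1.60, 3.97 and 4.47 CPM in HBE, log2 fold 2.28, edgeR adjusted p = 1.90e-07) and GATA6 (11.4, 11.5 and 50.8 CPM in H1299, against 4.52, 5.95 and 13.0 CPM in HBE, log2 fold 1.44, edgeR adjusted p = 3.39e-06), which both serve other tissues as well.

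**Figure D2:**
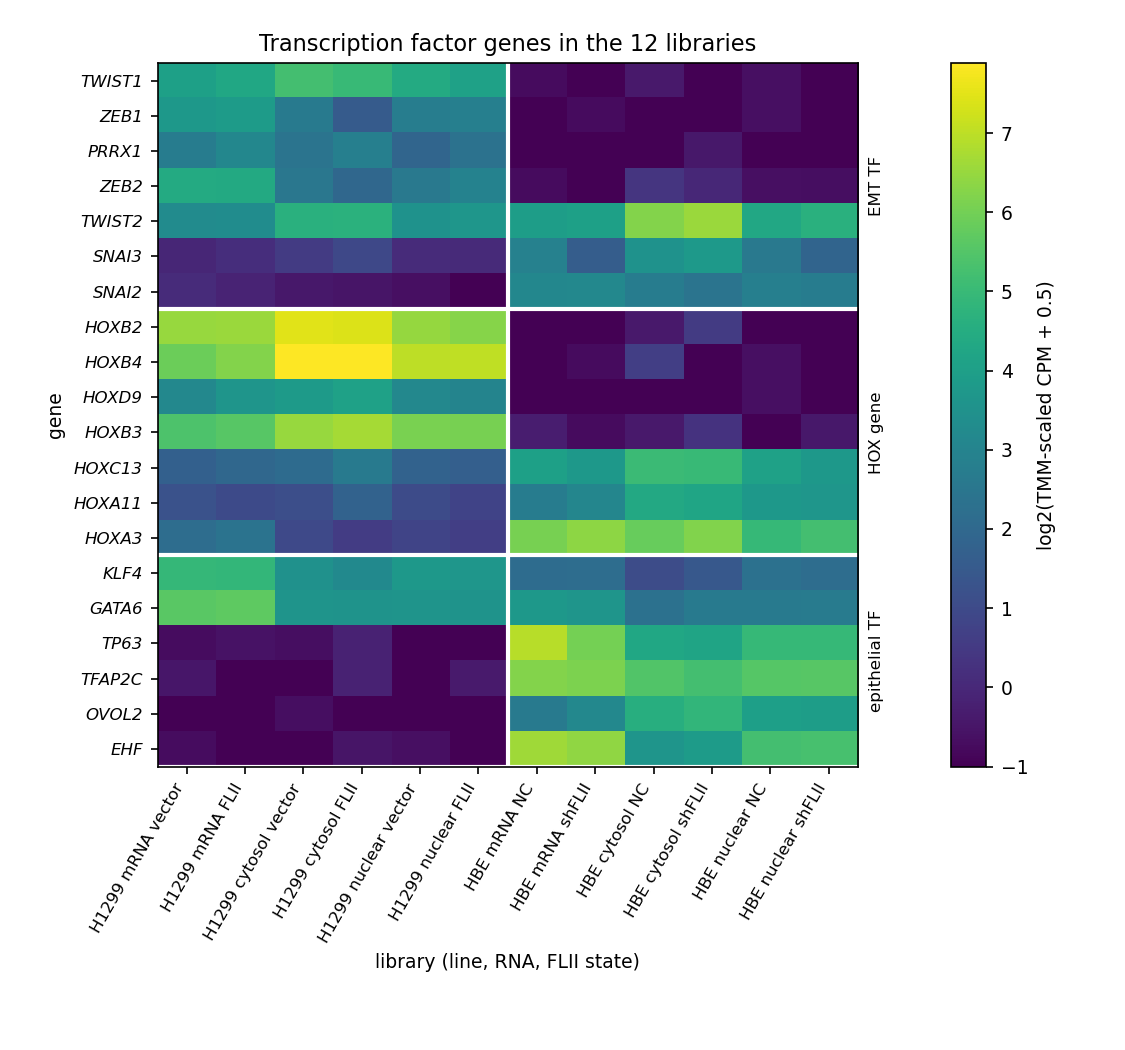
Heat map of log2(TMM-scaled CPM plus 0.5) for the named EMT, HOX and epithelial transcription factor genes (rows) in the 12 libraries (columns), H1299 left of HBE. ZEB1, ZEB2, PRRX1, TWIST1 and the HOXB genes are bright in H1299 alone, and EHF, OVOL2, TFAP2C and TP63 in HBE alone.

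HOX genes, which fix position along the body axis, were higher in H1299 in 16 of 20 cases tested (39 listed, 14 passing through H1299 alone and 3 through HBE alone) and lower in 3. HOXB2 had 77.4, 92.2 and 180.0 CPM in H1299, against 0, 0 and 0.976 CPM in HBE (log2 fold 9.59 ± 0.34 SE, edgeR adjusted p = 9.70e-12). HOXB4 had 59.3, 129.6 and 236 CPM in H1299, against 0, 0.0521 and 1.06 CPM in HBE (log2 fold 9.56, edgeR adjusted p = 5.90e-12). HOXD9 had 7.46, 10.1 and 16.6 CPM in H1299, against 0, 0 and 0.144 CPM in HBE (summed ratio 456, 95% counting interval 81.5 to 18040.0). Each was at or below 1.06 CPM in every HBE library. HOXA3 went the other way with 1.00, 1.37 and 4.76 CPM in H1299, against 30.8, 61.2 and 82.0 CPM in HBE (log2 fold -4.67, edgeR adjusted p = 2.19e-10), as did HOXA11 and HOXC13 with log2 folds of -2.75 and -2.46. Neuronal and neuroendocrine genes were higher in H1299 in 8 of 10 cases tested (30 listed, 6 passing through H1299 alone and 1 through HBE alone) and lower in 1. UCHL1, a ubiquitin hydrolase of neurons, had 426, 695 and 802 CPM in H1299, against 1.67, 3.29 and 10.0 CPM in HBE (log2 fold 7.45, edgeR adjusted p = 6.96e-12). The neurofilament heavy chain NEFH had 16.4, 25.4 and 41.8 CPM in H1299, against 0, 0.135 and 0.266 CPM in HBE (log2 fold 7.99, edgeR adjusted p = 2.80e-11). INA, the filament protein internexin, had 2 reads in HBE (summed ratio 996, 95% counting interval 275 to 8229.8). L1CAM, a neural adhesion molecule, was lower in H1299 (log2 fold -5.49). HOXB4 had a log2 fold of 10.65 without the HBE NC cytosol library. Leaving out the HBE hairpin cytosol library gave a log2 fold of 11.16 for HOXB2.

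Tumour suppressor genes were mostly not called. Of 55 tested (60 listed, 4 passing through H1299 alone and 4 through HBE alone), 7 were higher (12.7%) and 14 lower (25.5%), beside 18.1% and 22.5% of all genes, and the list's median was -0.23 with TMM and 0.03 with total counts. The SWI/SNF ATPase SMARCA4 had 9.21, 20.6 and 43.2 CPM in H1299, against 137, 252 and 330.3 CPM in HBE (log2 fold -3.39 ± 0.21 SE, edgeR adjusted p = 3.04e-09). The receptor NOTCH1 had 1.82, 6.23 and 11.1 CPM in H1299, against 44.4, 97.1 and 399 CPM in HBE (log2 fold -4.35, edgeR adjusted p = 5.77e-10). SEMA3B, a secreted semaphorin of the deleted 3p region in lung cancer, had 2.86, 3.66 and 17.2 CPM in H1299, against 395, 851 and 1105 CPM in HBE (log2 fold -7.12, edgeR adjusted p = 1.40e-08). T-cadherin (CDH13) had 0, 0.128 and 0.602 CPM in H1299, against 6.92, 36.5 and 67.1 CPM in HBE (log2 fold -7.82, edgeR adjusted p = 1.17e-09). In contrast RB1 had 7.52, 11.4 and 23.1 CPM in H1299, against 8.25, 11.5 and 34.8 CPM in HBE and was not called (log2 fold -0.29, edgeR adjusted p = 0.15). STK11, a kinase that senses energy stress, had a log2 fold of -0.46 and was not called either. For CDH13 the log2 fold was -7.12 without the H1299 FLII mRNA library. Without the H1299 FLII cytosol library, the log2 folds of SEMA3B and CDH13 were -7.76 and -8.58, in this order.

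The largest folds of the tumour suppressor list were upward. CDKN2A, which encodes p16 and ARF, had 188, 333 and 845 CPM in H1299, against 0, 0.684 and 1.86 CPM in HBE (log2 fold 9.32 ± 0.25 SE, edgeR adjusted p = 1.71e-12). CDKN2B, which encodes p15, had 23.7, 36.2 and 61.8 CPM in H1299, against 0, 0 and 0.144 CPM in HBE (summed ratio 789, 95% counting interval 218 to 6518, H1299 over HBE). MTAP, the enzyme that salvages methylthioadenosine and whose gene lies near CDKN2A in the annotation (GRCh38.p14), had 20.3, 28.1 and 41.7 CPM in H1299, against 0.104, 1.05 and 1.64 CPM in HBE (log2 fold 5.19, edgeR adjusted p = 1.97e-08). HBE thus had at most 1.64 CPM of MTAP, 1.86 CPM of CDKN2A and 0.144 CPM of CDKN2B in any library. The genes around them were looked at after these values were seen. DMRTA1, next to CDKN2B, had 0.60 to 5.66 CPM in H1299, against at most 0.31 CPM in HBE. CDKN2B-AS1, the antisense transcript ANRIL, had 1.27 to 8.60 CPM in H1299, against 0.13 to 0.62 CPM in HBE, and without known strand its reads cannot be told apart from those of CDKN2B. Farther out, MLLT3 had a log2 fold of 0.87 (edgeR adjusted p = 0.00353), KLHL9 had a log2 fold of -0.66 (edgeR adjusted p = 0.00158), FOCAD of -0.12 (edgeR adjusted p = 0.488) and CAAP1 of 0.21 (edgeR adjusted p = 0.307), and none of the 4 was called, while PLAA beyond CAAP1 was higher in H1299 by 1.59. Copy number was not measured. DLC1, a GTPase-activating protein, was also higher in H1299, with 9.62, 17.6 and 69.5 CPM in H1299, against 0.798, 2.34 and 5.67 CPM in HBE (log2 fold 3.28, edgeR adjusted p = 5.41e-10).

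**Figure D3:**
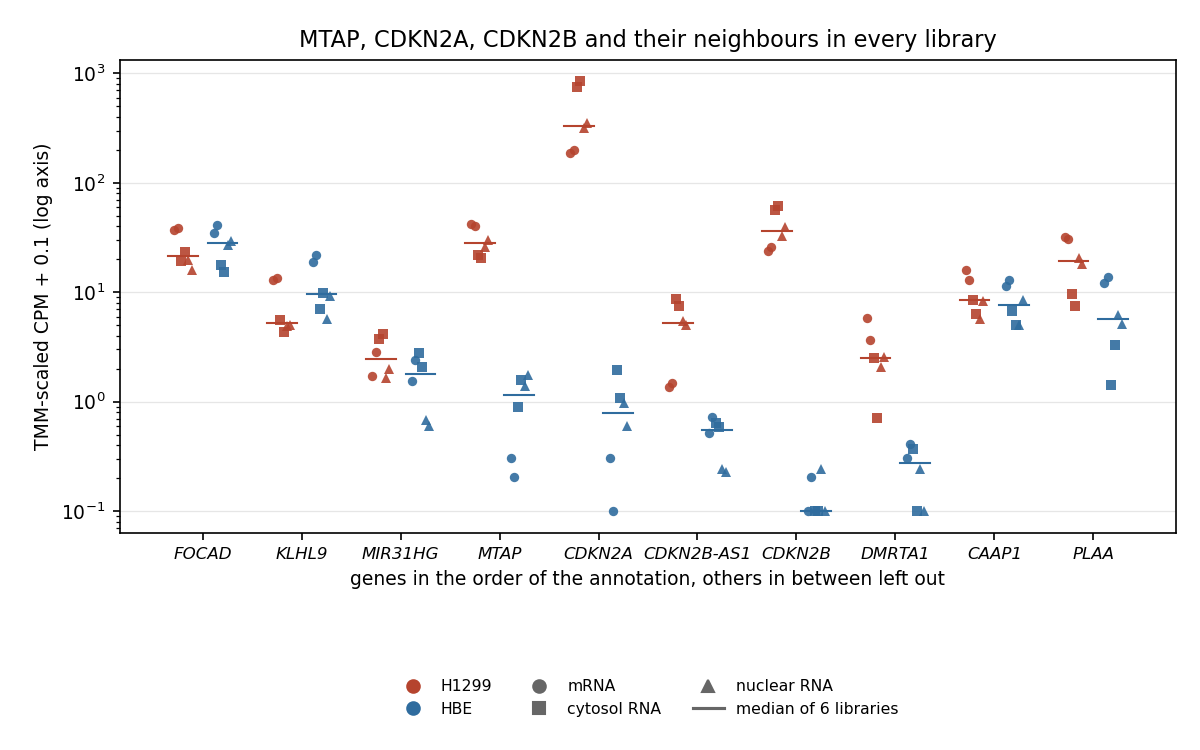
TMM-scaled CPM plus 0.1 on a log axis for MTAP, CDKN2A, CDKN2B and genes around them, in the order of the annotation, H1299 (red) left of HBE (blue), 1 point per library with the median of 6 as a bar. MTAP, CDKN2A, CDKN2B, CDKN2B-AS1 and DMRTA1 are below 2 CPM in every HBE library. CDKN2B-AS1 and DMRTA1 are also below 2 CPM in some H1299 libraries. FOCAD, KLHL9, MIR31HG, CAAP1 and PLAA overlap between the lines.

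CDKN1A, which encodes the cell cycle inhibitor p21, had 51.1, 65.3 and 214 CPM in H1299, against 143, 221 and 787 CPM in HBE (log2 fold -1.83 ± 0.12 SE, edgeR adjusted p = 7.28e-09). PHLDA3, an inhibitor of Akt, had 0.678, 0.944 and 6.42 CPM in H1299, against 147, 338 and 832 CPM in HBE (log2 fold -7.92, edgeR adjusted p = 6.07e-11). TRIM22, a tripartite-motif protein of antiviral defence, had 1 read in H1299 (summed ratio 0.00131, 95% counting interval 3.31e-05 to 0.00732). MDM2, a ubiquitin ligase, had 43.6, 48.5 and 63.1 CPM in H1299, against 38.5, 51.1 and 68.1 CPM in HBE, overlapped between the lines and was not called (log2 fold 0.01, edgeR adjusted p = 0.95). In the other direction, PMAIP1, which encodes the death protein NOXA, had 31.1, 45.1 and 53.8 CPM in H1299, against 5.94, 7.99 and 8.51 CPM in HBE (log2 fold 2.49, edgeR adjusted p = 6.25e-09), and GADD45A had 64.8, 95.6 and 126 CPM in H1299, against 11.4, 23.3 and 37.0 CPM in HBE (log2 fold 2.10, edgeR adjusted p = 3.66e-06). The cell cycle genes under RB and E2F were mostly not called: 4 of 39 tested (40 listed, 0 passing through H1299 alone and 2 through HBE alone) were higher and 2 lower. These are 10.3% and 5.13%, beside 18.1% and 22.5% of all genes, and the median was 0.10. With total counts 11 of 40 were higher and 1 lower. MCM4, a helicase subunit, had 309, 388 and 423 CPM in H1299, against 75.3, 98.3 and 151 CPM in HBE (log2 fold 1.87, edgeR adjusted p = 1.45e-08), and the transcription factor E2F2 had 21.7, 30.2 and 33.8 CPM in H1299, against 4.33, 6.88 and 13.2 CPM in HBE (log2 fold 1.93, edgeR adjusted p = 4.93e-07). Cyclin D2 (CCND2) stood out downward, with 0.426, 1.01 and 2.54 CPM in H1299, against 42.4, 67.6 and 109 CPM in HBE (log2 fold -5.72, edgeR adjusted p = 1.84e-11).

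Adhesion and matrix genes were called in both directions. Of 17 cadherin and protocadherin genes with their catenins tested (41 listed, 1 passing through H1299 alone and 6 through HBE alone), 12 were lower and 2 higher (median -3.22). Beta-catenin (CTNNB1) had 57.1, 99.9 and 153 CPM in H1299, against 201, 473 and 552 CPM in HBE (log2 fold -1.94, edgeR adjusted p = 1.74e-08). The atypical cadherins FAT4 and CELSR3 were higher, by 3.89 and 2.57. VE-cadherin (CDH5), the endothelial cadherin, had 0, 0 and 0.201 CPM in H1299, against 6.59, 17.7 and 62.4 CPM in HBE (summed ratio 0.00155, 95% counting interval 1.88e-04 to 0.00561). Of 14 integrin genes tested (24 listed, 2 passing through H1299 alone and 3 through HBE alone), 6 were lower (42.9%, beside 22.5% of all genes) and 2 higher (14.3%, beside 18.1%), with a median of -0.68. ITGB4, the integrin of hemidesmosomes, had 27.5, 32.2 and 64.0 CPM in H1299, against 699.8, 963 and 1128 CPM in HBE (log2 fold -4.75 ± 0.22 SE, edgeR adjusted p = 1.11e-10). ITGA4, an integrin of leukocytes and mesenchymal cells, had 5.21, 22.3 and 28.3 CPM in H1299, against 0, 0 and 0.104 CPM in HBE (summed ratio 415, 95% counting interval 114 to 3428). Neither, picked for its large fold, overlapped between the lines.

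Laminin and hemidesmosome genes were lower in 10 of 16 cases tested (20 listed, 3 passing through H1299 alone and 2 through HBE alone) and higher in 3 (median -1.44). LAMA3, a chain of the epithelial laminin-332, had 0.606, 3.57 and 7.27 CPM in H1299, against 7.18, 107 and 195 CPM in HBE (log2 fold -4.42, edgeR adjusted p = 8.25e-07). The hemidesmosome collagen COL17A1 had 4.60, 10.6 and 21.5 CPM in H1299, against 31.0, 355 and 459.9 CPM in HBE (log2 fold -4.06, edgeR adjusted p = 5.84e-07). LAMA2, a laminin chain of muscle and mesenchyme, had 2.21, 16.7 and 21.7 CPM in H1299, against 0, 0.236 and 0.576 CPM in HBE (log2 fold 5.85, edgeR adjusted p = 2.50e-09), and LAMC3 and NID1 were higher by 6.36 and 6.32. Of 17 collagen genes tested (29 listed, 3 passing through H1299 alone and 11 through HBE alone), 13 were lower and 4 higher. COL6A1, a chain of collagen VI, had 18.9, 84.9 and 104 CPM in H1299, against 0, 0.135 and 0.244 CPM in HBE (log2 fold 8.92 ± 0.24 SE, edgeR adjusted p = 1.71e-12). Its partner chain COL6A2 had 60.7, 158 and 191 CPM in H1299, against 0, 0.277 and 0.732 CPM in HBE (log2 fold 8.75, edgeR adjusted p = 1.23e-11). The basement membrane chain COL4A2 had 0, 0.352 and 4.41 CPM in H1299, against 34.8, 187 and 239.5 CPM in HBE (log2 fold -7.29, edgeR adjusted p = 2.42e-07), and its partner COL4A1 a log2 fold of -7.70. COL8A1 had 1 read in H1299 (summed ratio 0.00137, 95% counting interval 3.47e-05 to 0.00769). Both type VI chains were thus below 1 CPM in every HBE library, while COL4A1 was at most 0.602 CPM in H1299, against 2.93 to 43.1 CPM in HBE. COL4A1 had a log2 fold of -7.09 without the H1299 FLII mRNA library. Leaving out the H1299 FLII cytosol library gave log2 folds of -8.73 and -8.86 for COL4A2 and COL4A1, in this order. For NID1 the log2 fold was 7.72 without the HBE NC mRNA library. Without the HBE hairpin mRNA library, the log2 fold of NID1 was 5.73.

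Receptors and ligands for growth factors were lower in 21 of 36 cases tested (49 listed, 5 passing through H1299 alone and 8 through HBE alone) and higher in 8 (median -1.35). ERBB2, a receptor kinase of epithelia, had 26.5, 37.0 and 39.4 CPM in H1299, against 169, 180.0 and 226 CPM in HBE (log2 fold -2.41 ± 0.11 SE, edgeR adjusted p = 1.28e-10). Its relative EGFR, with large differences between fractions, had 1.70, 4.86 and 44.7 CPM in H1299, against 8.78, 25.6 and 198 CPM in HBE (log2 fold -2.33, edgeR adjusted p = 1.91e-09). The ligand amphiregulin (AREG) had 0.116, 0.414 and 1.40 CPM in H1299, against 16.9, 24.3 and 84.9 CPM in HBE (log2 fold -6.14, edgeR adjusted p = 2.00e-10). IGFBP7, a secreted binding protein, had 0.779, 1.55 and 19.05 CPM in H1299, against 524, 783 and 1252 CPM in HBE (log2 fold -7.94, edgeR adjusted p = 5.19e-08). Upward, the receptor FGFR1 had 68.0, 76.5 and 145 CPM in H1299, against 0.928, 3.13 and 4.88 CPM in HBE (log2 fold 5.15, edgeR adjusted p = 1.25e-08), and AXL had 243, 402 and 1133 CPM in H1299, against 132, 149 and 224 CPM in HBE (log2 fold 1.58, edgeR adjusted p = 8.66e-06). MERTK, a receptor of the AXL family, had 2.91 to 23.7 CPM in H1299 and no read in HBE, so it was at least 220.5-fold higher, against the floor of 3 reads. IGFBP7 had a log2 fold of -9.09 without the H1299 FLII cytosol library.

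Metabolic genes differed gene by gene. Of 32 genes of glycolysis and hypoxia (32 listed, 0 passing through H1299 alone and 5 through HBE alone), 12 were lower and 5 higher (median -0.44). GAPDH, a core glycolytic enzyme, had 6927, 13875 and 27594 CPM in H1299, against 5102, 11181 and 24699 CPM in HBE and was not called (log2 fold 0.20, edgeR adjusted p = 0.101). The glucose carrier SLC2A1 had 48.6, 100.5 and 134 CPM in H1299, against 205, 453 and 534 CPM in HBE (log2 fold -2.03, edgeR adjusted p = 2.35e-09). The hypoxia gene CA9, a carbonic anhydrase, had 0.407, 0.473 and 1.28 CPM in H1299, against 22.5, 75.8 and 484 CPM in HBE (log2 fold -7.75, edgeR adjusted p = 4.64e-07). NDRG1, another hypoxia gene, had 1.50, 1.94 and 4.41 CPM in H1299, against 65.0, 97.0 and 1419 CPM in HBE (log2 fold -6.63, edgeR adjusted p = 3.57e-06). Both had their maximum in the HBE NC mRNA library, without which the log2 folds were -6.42 (edgeR adjusted p = 5.08e-11) and -5.32 (edgeR adjusted p = 1.66e-10). ANGPTL4, an inhibitor of lipoprotein lipase, was higher in H1299, with 79.8, 110.0 and 258 CPM in H1299, against 1.46, 6.70 and 26.0 CPM in HBE (log2 fold 3.85, edgeR adjusted p = 5.59e-06). Serine, one-carbon and nucleotide genes were called in 5 of 30 cases tested each way (32 listed, 2 passing through H1299 alone and 2 through HBE alone). This is 16.7% each way, beside 18.1% higher and 22.5% lower over all genes, and their median was -0.09 with TMM and 0.20 with total counts. CBS, which makes cystathionine, had 94.4, 104 and 156 CPM in H1299, against 0, 0.845 and 1.33 CPM in HBE (log2 fold 7.21 ± 0.26 SE, edgeR adjusted p = 1.39e-11). ASS1, an enzyme of arginine synthesis, had 2.08, 4.84 and 9.22 CPM in H1299, against 111, 312 and 599 CPM in HBE (log2 fold -6.22 ± 0.23 SE, edgeR adjusted p = 1.94e-11). Leaving out the HBE NC mRNA library gave a log2 fold of 4.80 for ANGPTL4.

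Genes of redox defence, including NRF2 targets, were lower in 16 of 38 cases tested (40 listed, 3 passing through H1299 alone and 7 through HBE alone) and higher in 6 (median -0.69). NFE2L2, which encodes NRF2, had 9.62, 17.1 and 44.7 CPM in H1299, against 12.2, 21.3 and 57.5 CPM in HBE and was not called (log2 fold -0.33, edgeR adjusted p = 0.0738). GPX1, the main cytosolic glutathione peroxidase, had 0.994, 2.12 and 25.1 CPM in H1299, against 541, 1286 and 6388 CPM in HBE (log2 fold -8.87 ± 0.51 SE, edgeR adjusted p = 1.19e-09). The peroxiredoxin PRDX2 had 0.542, 1.03 and 14.4 CPM in H1299, against 310.0, 707 and 1621 CPM in HBE (log2 fold -8.48, edgeR adjusted p = 1.20e-09). AKR1C1, a steroid reductase, had 0, 0.187 and 0.802 CPM in H1299, against 47.5, 58.2 and 168 CPM in HBE (log2 fold -8.43, edgeR adjusted p = 7.38e-11), with the caution that it shares much sequence with AKR1C2. Haem oxygenase (HMOX1) and the plasma peroxidase GPX3 were higher in H1299, by 3.13 and 4.56. Of 23 genes of aldehyde, retinoid and xenobiotic metabolism tested (35 listed, 2 passing through H1299 alone and 8 through HBE alone), 17 were lower and 3 higher. Their median was -2.71 with TMM and -2.12 with total counts. ALDH3A1, an aldehyde dehydrogenase of the airway and cornea, had 0, 0.294 and 0.602 CPM in H1299, against 11.5, 26.7 and 48.3 CPM in HBE (log2 fold -6.74, edgeR adjusted p = 1.01e-09). NNMT, which methylates nicotinamide, had 0.0866, 0.192 and 1.60 CPM in H1299, against 31.0, 49.0 and 89.5 CPM in HBE (log2 fold -7.15, edgeR adjusted p = 1.22e-09). The retinoic acid carrier CRABP2 was higher (log2 fold 3.47). For AKR1C1 the log2 fold was -7.76 without the H1299 FLII mRNA library. Without the H1299 FLII cytosol library, the log2 folds of GPX1, PRDX2 and NNMT were -9.52, -9.44 and -7.81, in this order.

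Lipid and sterol genes were lower in 11 of 36 cases tested (42 listed, 3 passing through H1299 alone and 1 through HBE alone) and higher in 5. These are 30.6% lower and 13.9% higher, beside 22.5% and 18.1% of all genes (median -0.43). PLIN2, the coat protein of lipid droplets, had 36.8, 39.0 and 52.5 CPM in H1299, against 0, 0 and 0.515 CPM in HBE (log2 fold 8.16 ± 0.33 SE, edgeR adjusted p = 3.49e-11). ELOVL2, which lengthens polyunsaturated fatty acids, had 11.6, 15.8 and 32.3 CPM in H1299, against 0, 0.115 and 0.244 CPM in HBE (log2 fold 7.30, edgeR adjusted p = 1.85e-11). CPT1A, the gate of mitochondrial fatty acid oxidation, had 84.2, 117 and 173 CPM in H1299, against 10.4, 28.9 and 34.7 CPM in HBE (log2 fold 2.37, edgeR adjusted p = 8.77e-07). FADS2, a fatty acid desaturase, had 20.1, 22.8 and 26.7 CPM in H1299, against 70.0, 128 and 139.9 CPM in HBE (log2 fold -2.36, edgeR adjusted p = 4.31e-09). The 7 metallothioneins tested (10 listed, 0 passing through H1299 alone and 5 through HBE alone), small metal-binding proteins, were called lower in H1299, MT2A with 448, 544 and 1092 CPM in H1299, against 879.9, 4271 and 13804 CPM in HBE (log2 fold -2.63, edgeR adjusted p = 8.64e-06) and MT1E with 0, 0.574 and 7.02 CPM in H1299, against 147, 373 and 963 CPM in HBE (log2 fold -8.46, edgeR adjusted p = 1.01e-09). Near-identical metallothionein copies may have exchanged reads. MT1E had a log2 fold of -9.33 without the H1299 FLII cytosol library. Leaving out the HBE NC mRNA library gave a log2 fold of 9.81 for PLIN2.

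The 11 cancer-testis antigen genes tested (40 listed, 11 passing through H1299 alone and 0 through HBE alone) were called higher in H1299, and the other 29 were too low in both lines to be tested. PRAME, which binds retinoic acid receptors, had 103, 171 and 229.7 CPM in H1299, against 0, 0.225 and 0.532 CPM in HBE (log2 fold 9.72 ± 0.27 SE, edgeR adjusted p = 1.95e-12). MAGEA3 had 167, 208 and 243 CPM in H1299, against 0, 0.0721 and 1.46 CPM in HBE (log2 fold 9.70, edgeR adjusted p = 4.21e-11). Neither passed 1.46 CPM in any HBE library, and copies within the MAGEA and GAGE families may have exchanged reads. Of 19 antigen presentation genes tested (24 listed, 0 passing through H1299 alone and 3 through HBE alone), 5 were lower (26.3%, beside 22.5% of all genes) and 1 higher (5.26%, beside 18.1%). The invariant chain CD74 had 0.136, 0.546 and 1.40 CPM in H1299, against 85.2, 165 and 246 CPM in HBE (log2 fold -7.87, edgeR adjusted p = 9.56e-11). HLA-B had 229, 274 and 526 CPM in H1299, against 8.54, 22.8 and 46.2 CPM in HBE (log2 fold 3.84, edgeR adjusted p = 3.84e-10). HLA genes are polymorphic and alike in sequence, so their values are uncertain. For MAGEA3 the log2 fold was 10.98 without the HBE hairpin cytosol library.

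Interferon response genes were higher in H1299 in 13 of 25 cases tested (31 listed, 7 passing through H1299 alone and 2 through HBE alone) and lower in 6. ISG15, a ubiquitin-like modifier, had 334, 2129.6 and 4558 CPM in H1299, against 7.73, 26.3 and 66.1 CPM in HBE (log2 fold 5.94 ± 0.18 SE, edgeR adjusted p = 3.32e-12). IRF7, a master factor of interferon induction, had 11.1, 26.3 and 73.0 CPM in H1299, against 0, 0.316 and 0.833 CPM in HBE (log2 fold 5.72, edgeR adjusted p = 2.33e-08), and IFI6 had 119, 352 and 516 CPM in H1299, against 3.19, 5.39 and 11.4 CPM in HBE (log2 fold 5.58, edgeR adjusted p = 3.07e-08). The RNA sensor OAS1, in contrast, had 0.142, 0.732 and 1.33 CPM in H1299, against 25.1, 28.6 and 35.4 CPM in HBE (log2 fold -5.37, edgeR adjusted p = 5.28e-10), and the membrane protein IFITM1 had 9.94, 30.7 and 65.4 CPM in H1299, against 125, 299.7 and 527 CPM in HBE (log2 fold -3.55, edgeR adjusted p = 2.02e-09). The direction was thus not shared by all members, and plasmid and lentiviral delivery cannot be told apart from the line. Of 25 NF-kB and chemokine genes tested (32 listed, 1 passing through H1299 alone and 11 through HBE alone), 15 were lower and 5 higher (median -2.20). With total counts 13 of 23 were lower and 6 higher (median -1.26). IL1B, an inflammatory cytokine, had 0, 0.126 and 1.40 CPM in H1299, against 42.8, 95.3 and 104 CPM in HBE (log2 fold -8.41, edgeR adjusted p = 2.98e-10). IL6 and CSF3 had no read in H1299 and were at least 119-fold and 66.8-fold higher in HBE. The chemokine CXCL2 had 99.7, 243 and 761 CPM in H1299, against 13.6, 35.1 and 54.6 CPM in HBE (log2 fold 3.37, edgeR adjusted p = 2.80e-07), and BIRC3, an inhibitor of apoptosis, had 53.6, 64.0 and 86.7 CPM in H1299, against 0.976, 3.90 and 8.04 CPM in HBE (log2 fold 3.86, edgeR adjusted p = 2.39e-08). Of 10 imprinted genes tested (17 listed, 4 passing through H1299 alone and 3 through HBE alone), 4 were higher and 4 lower. IGF2, a growth factor, had 5.43, 26.6 and 53.8 CPM in H1299, against 0.208, 0.299 and 0.976 CPM in HBE (log2 fold 5.86, edgeR adjusted p = 3.02e-10), whereas its neighbour H19, a noncoding RNA, had 2.30, 3.37 and 62.8 CPM in H1299, against 1621, 3255 and 4903 CPM in HBE (log2 fold -8.58, edgeR adjusted p = 3.00e-07). PLAGL1 had no read in HBE and was at least 242-fold higher in H1299, and GRB10 was lower (log2 fold -7.82). Without the H1299 FLII cytosol library, the log2 folds of IL1B, H19 and GRB10 were -9.55, -9.72 and -8.79, in this order. IRF7 had a log2 fold of 6.30 without the HBE hairpin mRNA library.

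**Figure D4:**
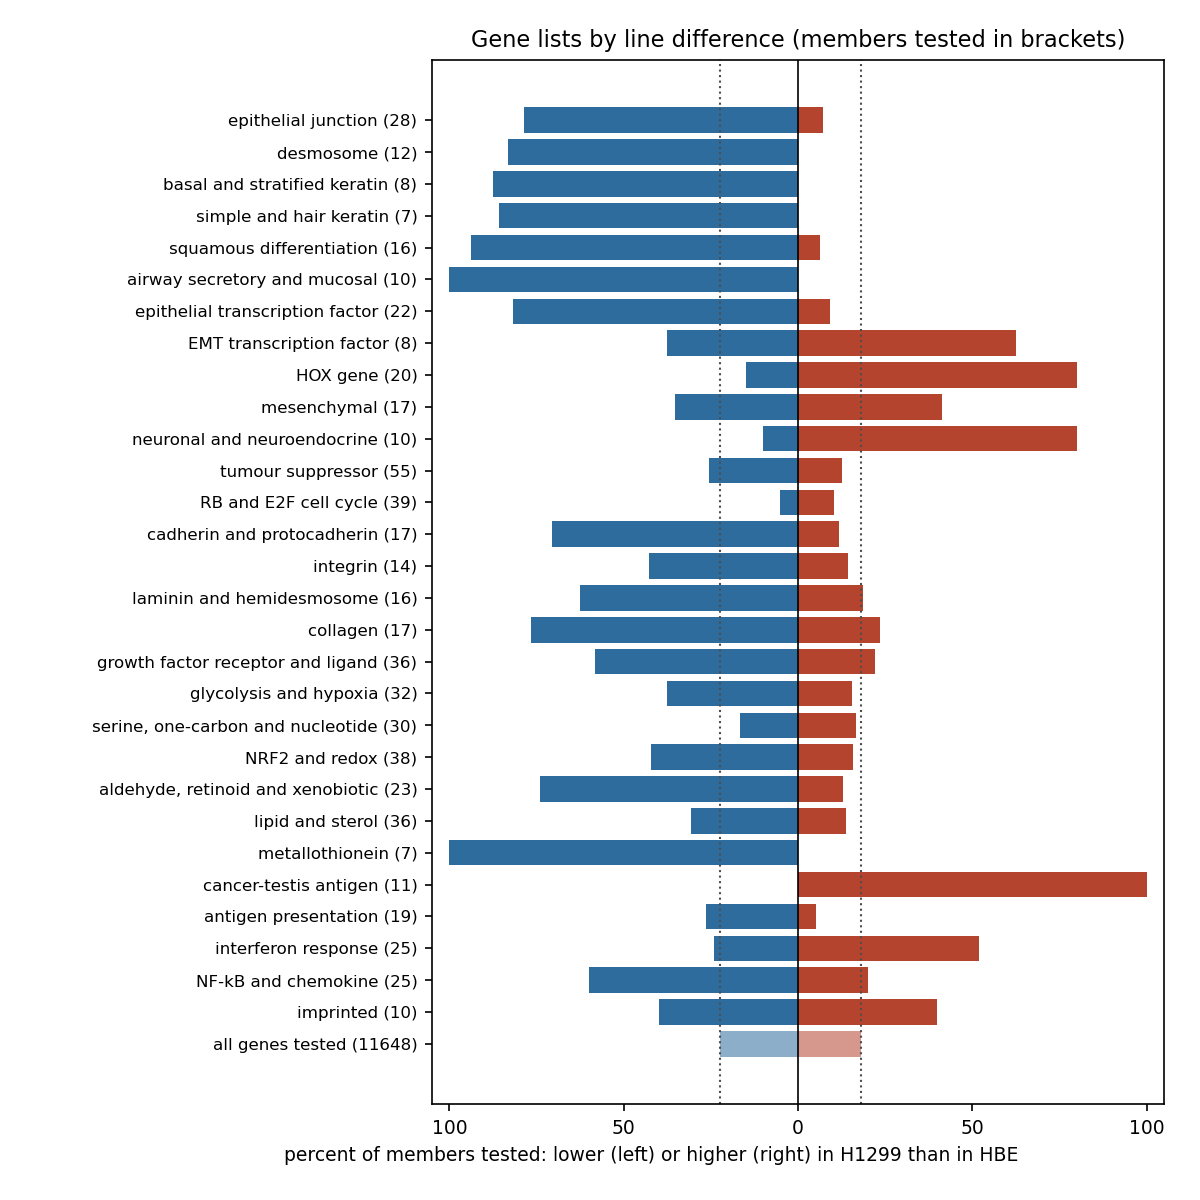
Percent of the tested members of the gene lists named on the axis, other lists not being drawn, that were higher (red, right) or lower (blue, left) in H1299 than in HBE, with the share over all 11648 genes tested in the bottom bar and as dotted lines. Cancer-testis, HOX and neuronal genes lie furthest to the right of the lists drawn, and mucosal and metallothionein genes furthest to the left.

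The line difference depended on the RNA fraction in 3121 genes (26.8% of those tested) by the edgeR interaction test, of which 1308 were also called between lines. Epithelial junction genes were among them in 18 of 28 cases. CDH1 had within-fraction log2 folds of -7.58 in mRNA, -2.46 in cytosol and -8.75 in nuclear RNA (edgeR interaction adjusted p = 0.00117). DSP had -6.12, -2.76 and -5.77 in the same order (edgeR interaction adjusted p = 5.76e-04). For VIM the folds were 10.15, 7.97 and 10.57 (edgeR interaction adjusted p = 8.82e-04). The direction was the same in all 3 fractions for these genes, and the smallest size was in the cytosol. The H1299 cytosol library with the FLII plasmid entered these cytosol folds. It held 139.8 CPM summed over the basal epithelial markers, against 21.3 CPM in the H1299 vector cytosol library. Without it 3445 genes were fraction-dependent. Its part in the cytosol folds of single genes was not tested.

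Comparing nuclear with cytosol RNA alone, the line difference was lower in the nucleus in 263 genes (2.26%) and higher there in 96 (0.824%). A line difference that is lower in the nucleus is, by definition, a higher nuclear over cytosol ratio in HBE. The ratios of the first group thus restate the call. The first group had median log2 nuclear over cytosol ratios of 0.31 in H1299 and 1.78 in HBE, against -0.03 in H1299 and 0.07 in HBE over all genes. Their median transcript length was 4359 bases, against 3031 bases over all genes. The spread of the ratio over all genes was also unlike, with an SD of 1.05 in H1299 and 1.23 in HBE. SPTBN1, a long spectrin transcript, had 109 and 108 CPM in nuclear and 22.1 and 18.3 CPM in cytosol libraries of H1299. In HBE it had 146 and 132 CPM in nuclear, but 4.64 and 4.79 CPM in cytosol libraries. The nuclear minus cytosol line difference was -2.44 ± 0.28 SE on the log2 scale (edgeR adjusted p = 8.51e-04). The adhesion molecule ALCAM, the glutamine carrier SLC38A2, the splicing factors THRAP3 and SON, GIGYF2, CMTM6 and KCTD20 were the others, with -2.44 ± 0.29 SE for ALCAM and -1.93 ± 0.21 SE for SLC38A2. By the same definition, each of the 8 genes had a higher nuclear over cytosol ratio in HBE than in H1299.

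Among the genes in which the nuclear difference was higher, MAPK8IP3, a kinase scaffold of axonal transport, had 43.8 and 37.1 CPM in nuclear and 18.2 and 17.2 CPM in cytosol libraries of H1299. HBE had 195 and 192 CPM in nuclear and 386 and 317 CPM in cytosol libraries, so the ratio was above 1 in H1299 and below 1 in HBE (difference 2.05 ± 0.19 SE, edgeR adjusted p = 3.66e-04). The secreted neuropeptide precursor VGF (2.54 ± 0.29 SE), the ligand WNT7B (2.33 ± 0.28 SE), the lysosomal protein CD68 (1.51 ± 0.18 SE), the matrix protein LTBP2, the kinase MAPK13, YBX2 and MIR4461 were the others. YBX2, a germ-cell RNA-binding protein, had 9.27 and 18.1 CPM in HBE cytosol libraries and at most 0.206 CPM in the other 4 HBE libraries. These 2 counts were sensitive to the choice of libraries. Leaving out 1 library gave 30 to 112 genes higher and 122 to 578 lower. The lower count rose to 578 without HBE NC mRNA, 575 without HBE hairpin mRNA and 406 without H1299 FLII cytosol. It dropped to 131 without H1299 FLII nuclear, 144 and 156 without HBE NC or hairpin cytosol, and 122 without either HBE nuclear library. The higher count dropped to 58 without either H1299 mRNA library, 60 without H1299 vector cytosol, and 41 and 42 without H1299 vector or FLII nuclear. It was 62 and 30 without HBE NC or hairpin cytosol, and 42 and 58 without HBE NC or hairpin nuclear.

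**Figure D5:**
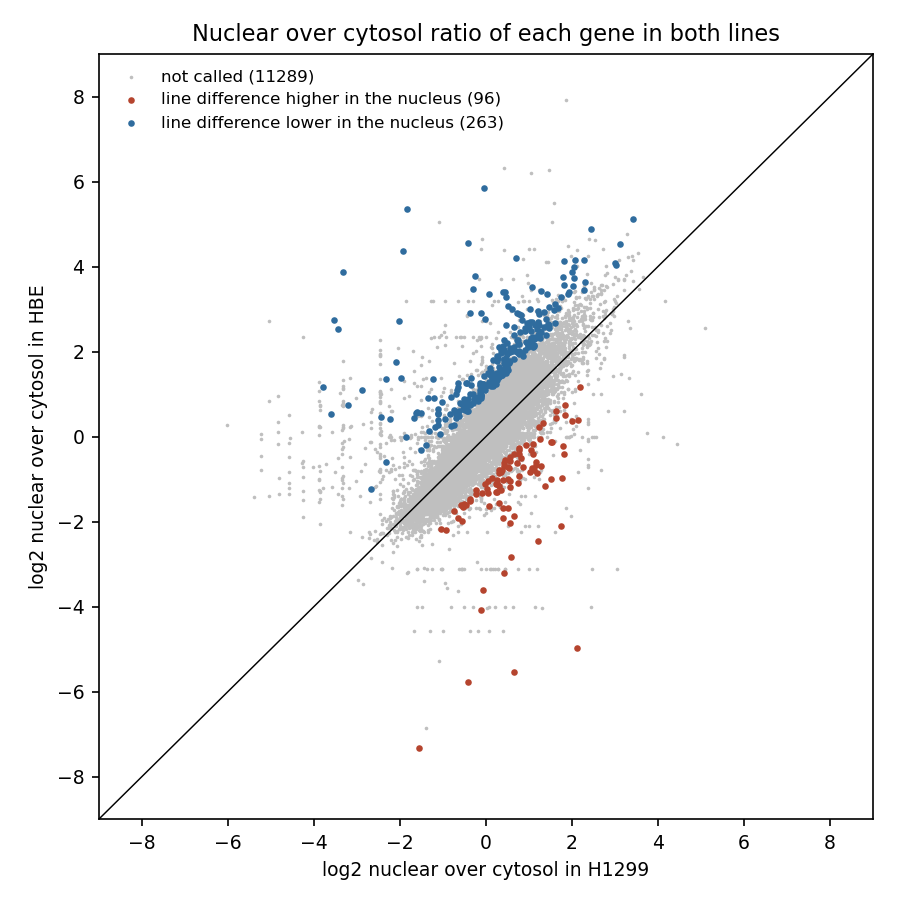
Log2 nuclear over cytosol ratio of each of 11648 genes in H1299 (horizontal) and HBE (vertical), with the diagonal of equal ratios. The 263 genes above the diagonal in blue have a line difference that is lower in the nucleus, and the 96 below it in red one that is higher.

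In 52 genes (0.446%) the within-fraction folds pointed opposite ways by log2 1 or more. The genes named next were picked for the largest spread among 1397 fraction-dependent genes with opposite signs of any size. They are thus not all among the 52. PRPH, the neuronal filament peripherin, had 2.08 and 2.08 CPM in H1299 mRNA, against 0.104 and 0.103 CPM in HBE mRNA. In cytosol RNA it had 6.22 and 4.85 CPM in H1299, against 71.5 and 79.0 CPM in HBE, and in nuclear RNA 2.71 and 2.70 CPM in H1299, against 52.0 and 58.5 CPM in HBE. PRPH was thus near 0 in HBE mRNA and not in either HBE fraction (edgeR interaction adjusted p = 5.48e-07). METTL7A, a lipid-droplet methyltransferase-like protein, showed this in H1299, with 0.346 and 0.116 CPM in mRNA, 10.2 and 11.5 CPM in cytosol and 6.91 and 6.53 CPM in nuclear RNA. In HBE all 6 METTL7A values lay between 8.25 and 34.5 CPM, so METTL7A did not reach log2 1 upward and was not among the 52. DSC3 and the low-level genes GPR1, NEUROG1 and C5orf46 were likewise at most 0.606 CPM in H1299 mRNA and at least 4.61 CPM in its cytosol and nuclear libraries. GAGE12G had 50.2 and 53.3 CPM in H1299 mRNA and no read in the other 4 H1299 libraries. It belongs to a family of near-identical copies among which reads may have been shared. CASC5, a kinetochore protein, had no read in HBE cytosol, so its cytosol fold is not given. The part of the library preparation in these fraction differences was not tested.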

How the data were processed

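Gene counts of 12 libraries of polyadenylated RNA were analysed: 6 of H1299 and 6 of HBE, 1 library for each combination of fraction and FLII state. The deposited tables give whole-number read counts per gene, made by the authors, and deposited RPKM values, per kilobase of gene length and per size of the library, which were not used here. The submitters' processing notes name builds GRCh37 and hg19. The sources used here do not name the aligner, the counter or its use of strand. The RNA of the 4 ribosome-bound libraries entered no comparison.

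Counts were scaled by TMM and tested with edgeR 4.0.16 (quasi-likelihood, R 4.3.3, limma 3.58.1) on genes with a mean of at least 5 CPM in either line, with fraction as a block and Benjamini-Hochberg adjustment over all genes tested. Fraction dependence was the interaction of line and fraction, and the nuclear minus cytosol difference was a contrast of it. Both were called at an adjusted p under 0.05 and a size of at least 1 on the log2 scale. The procedure was also run on simulated data in which 200 of 11648 genes were changed, with the spread of each gene fitted to these same libraries. That setting cannot show how the calls behave where 40.6% of genes differ or where libraries are not independent. Depth limits the precision of low genes, and intervals and floors cover counting error only.

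The gene lists and the groups compared were chosen with earlier results of these data known. Named genes were VIM, KRT5, KRT17, CDH1, FLII and 1 further gene, up to 4 called members per list and direction with the largest folds, the 10 widest gaps between lines per direction, the 8 smallest p-values per direction for the nuclear minus cytosol difference and the 8 largest spreads with opposite signs. KRT8, KRT18, CDH2, RB1, MDM2, CDKN1A, SMARCA4, STK11, MIR205HG, GAPDH, NFE2L2, CTNNB1, EPCAM, ERBB2, EGFR, SLC2A1, FN1, GRHL2, AXL and other list members outside this rule were chosen after their values were seen. The 26 symbols that read as dates were not named. Some further genes and a list that the rule covers are not reported here. Alternatives were DESeq2 1.42.0, other scalings, filters and call rules, single fractions, counts summed over fractions, FLII states apart and each library left out.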

Additional observations from a re-analysis of the deposited data

Results flagged for a closer look

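Among the 160 genes whose values are given above, each line was searched for a library far from the other 5. A library was set apart where its gap to the nearest other one, on the log2(CPM + 0.5) scale, relative to the whole range of the line, was above the critical value of Dixon's test at the 95% level. This met 39 libraries over 320 groups of 6. Chance sets apart about 1 in 20 groups only where the 6 values are draws from a single normal distribution. That rate cannot be used here, because each group mixes RNA fractions. Many of the genes were also named for large folds, and some of the libraries were set apart on very few reads. The 39 are thus a description, and how many chance would give was not tested. The H1299 FLII cytosol library was the highest of its line and set apart for 23 genes. The gap took 0.684 for CDH13, 0.699 for CLDN7, 0.746 for GPX1, 0.697 for H19, 0.682 for IGFBP7 and 0.778 for IL1B of the range. The share was 0.779 for ITGB4, 0.754 for KRT14, 0.711 for KRT19, 0.742 for KRT5, 0.676 for KRT81 and 0.72 for KRT86. It was 0.69 for LCN2, 0.774 for LY6D, 0.678 for MIR205HG, 0.814 for PHLDA3, 0.764 for PRDX2 and 0.663 for RAB25. The gap over the range was 0.642 for S100A9, 0.717 for SEMA3B, 0.647 for SERPINB5, 0.642 for SFN and 0.85 for SLPI. These are genes that were far higher in HBE. SLPI, for example, was at 4.61 CPM in that library, against at most 0.346 CPM in the other 5. The H1299 vector cytosol library was the highest for OVOL2 (1 of the range). The H1299 FLII mRNA library was the highest for COL8A1 (1 of the range). The H1299 vector mRNA library was the highest for TRIM22 (1 of the range). The H1299 FLII nuclear library was the lowest for E2F2 (0.63 of the range). The HBE NC cytosol library was the highest for HOXB4 (0.778 of the range). The HBE hairpin cytosol library was the highest for INA (1 of the range) and PRRX1 (1 of the range). The HBE NC mRNA library was the highest for NDRG1 (0.7 of the range) and PLIN2 (0.733 of the range). The HBE NC nuclear library was the highest for HOXD9 (1 of the range). The HBE NC mRNA library was the lowest for FADS2 (0.657 of the range). The HBE hairpin mRNA library was the lowest for CBS (0.71 of the range), CLDN3 (0.678 of the range), IL1B (0.781 of the range), PMAIP1 (0.758 of the range) and S100A9 (0.825 of the range). Where the share is 1, the 5 other libraries held no read.

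The line difference depended on the RNA fraction for 56 of these genes, by the edgeR interaction test and with a spread of the within-fraction log2 folds of at least 1. The spread was 11.1 for GAGE12G, 8.47 for PRPH, 7.38 for COL4A1, 7.01 for METTL7A, 6.29 for CDH1, 6.28 for COL4A2, 5.91 for DSC3 and 5.77 for YBX2. Smaller spreads were 5.57 for MAGEA3, 5.49 for ZEB2, 5.46 for CDH13, 5.42 for INA, 4.36 for HOXB2, 4.12 for H19, 4.04 for VGF and 3.94 for CLDN7. Next came 3.9 for IRF7, 3.84 for ALCAM, 3.7 for MTAP, 3.69 for KRT5, 3.5 for LAMA3, 3.38 for GPX3, 3.36 for DSP and 3.3 for IGFBP7. These were followed by 3.28 for EPCAM, 3.25 for CD74, 3.05 for FGFR1, 2.96 for COL17A1, 2.73 for IFI6, 2.72 for SLC38A2, 2.64 for MT2A and 2.6 for SEMA3B. Lower still were 2.59 for VIM, 2.53 for BIRC3, 2.45 for SPTBN1, 2.33 for WNT7B, 2.16 for CXCL2, 2.13 for TPM2, 2.05 for MAPK8IP3 and 2.04 for CPT1A. The spread between fractions was 1.89 for CRABP2, 1.75 for GADD45A, 1.62 for OCLN, 1.6 for CTGF, 1.58 for AXL, 1.58 for HOXA3, 1.51 for CD68 and 1.39 for SMARCA4. The remaining values were 1.38 for UCHL1, 1.31 for KLF4, 1.18 for E2F2, 1.15 for HMOX1, 1.13 for CELSR3, 1.05 for TWIST2, 1.03 for ITGB4 and 1.02 for GATA6. In CDH1, COL4A1 and COL4A2 the size of the difference was smallest in cytosol RNA. The blocked log2 folds of these genes were larger in size without the H1299 FLII cytosol library. Its part in their cytosol folds was not tested.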

How the results depend on the processing

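No paired analysis was possible because the labels give no replicate numbers that link H1299 and HBE libraries, and fraction was the block in the reported fit. Leaving out 1 library at a time gave 2078 to 2308 genes higher in H1299 and 2461 to 2631 lower, 134 to 138 list memberships higher and 296 to 305 lower, 2716 to 3544 fraction-dependent genes, and 30 to 112 higher and 122 to 578 lower genes for the nuclear minus cytosol difference. With at least 1 read in 2 libraries as the filter, 4177 genes and 212 list memberships were higher. With at least 20 CPM, 1142 genes were higher. At any size with an adjusted p under 0.05, 3989 genes were higher, 4645 lower and 5183 fraction-dependent, and the nuclear minus cytosol counts were 270 higher and 537 lower. At an absolute log2 fold of at least 3, 603 genes were higher and 811 lower, as were 72 and 183 list memberships. The nuclear minus cytosol counts were also 56 higher and 556 lower with total counts, 163 lower with DESeq2, and 163 higher and 714 lower without the H1299 FLII cytosol and HBE NC mRNA libraries together. The cause of these shifts was not tested, except that a filter or call rule changes the genes that can be counted. Reversed signs were -0.11 for FLII with control libraries alone, and 0.24 for PLK1 and -0.004008 for TP53INP1 with mRNA libraries alone. Among list medians, that of nuclear noncoding RNAs was -0.10, but 0.19 with total counts and 0.02 with control libraries alone, and that of alveolar genes was -0.59, but 0.07 with FLII-manipulated libraries alone. With counts summed over fractions, 1952 of the 2113 genes called higher and 2470 of the 2618 called lower were called again. Depth limits the levels of genes near 0 in a line, which rest on few reads.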
